A study of Homo sapiens with 2 samples.

Results

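The ISG15 conjugation system comprises the ubiquitin-like modifier ISG15, its activating enzyme UBA7 (E1), its conjugating enzyme UBE2L6 (E2), the HERC family ligases HERC5 and HERC6, and the protease USP18. The genes were chosen by symbol for their known roles, and all 6 were found among the 25240 genes of the deposited tables, as 8 of 37839 transcripts. All 6 also passed the filter that kept 12483 genes at 1 FPKM (a fragment number divided by transcript length and by the fragment total of the library) or more in at least 1 library, and each of them reached 1 FPKM in both. RNA had been sequenced from T47D, an established human luminal breast cancer cell line, in 2 libraries. The shNT library came from cells with a non-targeting short hairpin, and the shRON library from cells with a hairpin against RON, the receptor tyrosine kinase encoded by MST1R. Both cultures were puromycin-selected after transduction and kept in puromycin, in high-glucose DMEM with serum. Each group is a single library (n = 1), so no p-value is given, and the effect of the hairpin and a difference between 2 cultures cannot be told apart.

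ISG15 is attached to lysines of other proteins by a cascade that parallels that of ubiquitin. UBA7 activates ISG15 and passes it to UBE2L6, which works with a ligase, in human cells mainly HERC5, and USP18 removes ISG15 from its targets. The genes of the cascade are known targets of interferon signalling, and USP18 also restrains that signalling by binding the interferon receptor subunit IFNAR2. RNA levels, as measured here, do not report the amount of conjugated ISG15 protein.

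Interferon acts on many such genes through the interferon-stimulated response element, whose core was searched here, on both strands, as the letters GAAA given a second time after any 2 bases. Promoter windows from 250 bases before to 50 after the start of the gene (RefSeq, GRCh38.p14) were matched for 4 of the 6 genes, ISG15, UBE2L6, HERC5 and HERC6, and not for UBA7 and USP18. The stretches from 150 to 51 bases before the start are shown for the 2 genes whose windows held the core. These genes are ISG15 (chr1:1013347-1013446, plus strand) and HERC5 (chr4:88456969-88457068, plus strand). Capitals mark the core or its reverse complement, TTTC repeated in the same way.
ISG15: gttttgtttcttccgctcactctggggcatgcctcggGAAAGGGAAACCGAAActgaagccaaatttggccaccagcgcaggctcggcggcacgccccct
HERC5: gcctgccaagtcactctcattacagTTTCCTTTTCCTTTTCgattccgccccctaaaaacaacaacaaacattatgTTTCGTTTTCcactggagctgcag

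The ISG15 window held 2 overlapping matches on the strand of the gene, from 113 to 98 bases before the start. HERC5 had 3 matches on the opposite strand, of which 2 overlapped from 125 to 110 bases before the start and 1 lay from 74 to 65 bases before it. In both windows 1 match extended to a longer form, the core followed by CT. No match to the core was found in the window of HERC6 or in either of the 2 windows of UBE2L6. The HERC6 window is placed on a start 113 bases inside the deposited transcripts, by a match of its sequence to GRCh37, and that of ISG15 on a start 30 bases inside. The 2 windows of UBE2L6 are placed on starts 35 bases inside NM_004223.3 and 45 bases inside NM_198183.1, its deposited transcripts. The HERC5 window had no exact match in GRCh37. Of all 35116 promoter windows in the RefSeq table, 3.57% held the core and 0.273% the longer form, and among the other interferon-induced genes listed here, 28 of 41 windows of 29 matched genes (68.3%) held the core and 17 (41.5%) the longer form. A match describes letters in these windows and does not show binding.

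Every gene of the system stood higher in the shRON library. Ratios of FPKM ran from 1.65 for UBE2L6 to 9.23 for HERC5, and the 6 genes together summed to 529 FPKM in shNT against 1458 FPKM in shRON, a ratio of 2.76. On the scale of log2(FPKM + 1), which understates the ratio of genes at low levels, all 6 were at least 1.5-fold higher and 4 (HERC5, ISG15, HERC6 and USP18) at least 2-fold higher. Among all kept genes 9.94% were at least 1.5-fold higher and 3.32% at least 2-fold higher, while 8.84% were at least 1.5-fold and 2.17% at least 2-fold lower. The median log2 ratio of the system was 1.35, beside 0.04 for all kept genes. In bulk RNA, a higher level per cell and a larger share of cells with the transcript cannot be told apart. A description of 6 genes known to respond together to interferon is not 6 independent observations.

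**Figure D1:**
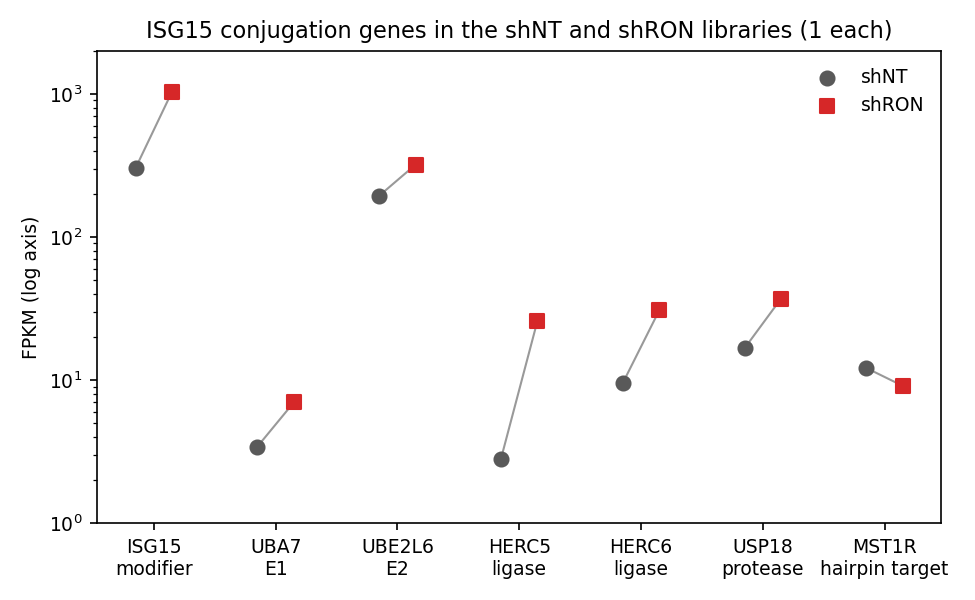
FPKM (log axis) of the 6 genes of the ISG15 system and of MST1R in the shNT library (grey circles) and the shRON library (red squares), 1 library each, with a line joining the values of a gene. All 6 genes were higher in shRON, HERC5 by the largest ratio (2.81 to 26.0 FPKM), while MST1R was lower (12.1 to 9.10 FPKM).

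MST1R, the target of the hairpin, had 12.1 FPKM in shNT against 9.10 FPKM in shRON, a percent change of -25.1. The direction goes with the labels, but the log2 ratio of -0.38 did not reach 1.5-fold. It stood at percentile 17.7 of the log2 ratios of all kept genes, so falls of this size were common. Coverage times length summed to 2.90 gigabases in shNT and 2.77 gigabases in shRON. The name of the deposited control table describes its cells as wild type, whereas the label gives a non-targeting hairpin, and the label was followed. Luminal markers (ESR1, PGR, GATA3, FOXA1, keratins and others) were all kept, 10 of 10, with a median log2 ratio of -0.39. Of these, 3 were at least 1.5-fold lower and 0 higher in shRON, or 1 lower with regional medians subtracted. Among all kept genes 8.84% were lower by that size. The 3 were PGR (76.7 to 35.1 FPKM, -1.11), CDH1 (163 to 100 FPKM, -0.70) and ESR1 (36.7 to 23.7 FPKM, -0.61). Of 13 immune cell markers 1 was kept, CD68 (1.37 and 5.84 FPKM), and the list summed to 2.02 FPKM in shNT and 6.97 FPKM in shRON. Both tables list the defining leukocyte markers PTPRC, CD3E, LYZ and TYROBP at 0. Of 7 fibroblast markers, summing to 4.14 and 5.86 FPKM, 2 were kept, COL1A1 (3.95 and 4.27 FPKM) and COL3A1, which reached 1 FPKM in shRON alone (0.0103 and 1.53 FPKM, log2 ratio 1.32). PDGFRA and PDGFRB were listed at 0 in both. Endothelial markers summed to 7.22 and 7.66 FPKM. The part of CD68 and COL3A1, which were higher in the same library as the ISG15 system, was not tested.

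The modifier gene ISG15 had 303 FPKM in shNT against 1037 FPKM in shRON. It was the most abundant gene of the system in both libraries, ranking 177 of the 12483 kept genes by FPKM in shNT and 33 in shRON. The log2 ratio was 1.77. On the FPKM scale ISG15 was 3.42 times as high in shRON (approximate 95% Clopper-Pearson interval 3.28 to 3.58), resting on about 2666 and 9040 fragments. These intervals, here and below, cover counting error only and not the difference between cultures. ISG15 lies on the plus strand of chromosome 1 from 948847 to 949920 (hg19), has 1 transcript of 667 bases in the tables, and is protein-coding.

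UBA7, the E1, was the least abundant enzyme of the cascade in shRON and close to the least in shNT, where HERC5 was lower. Its values were 3.42 FPKM in shNT and 6.995 FPKM in shRON, resting on about 173 and 340 fragments. The FPKM ratio was 2.04 (interval 1.70 to 2.47), and the log2 ratio of 0.85 passed 1.5-fold. With a pseudocount of 5 FPKM in place of 1, its log2 ratio was 0.51 and no longer passed. UBA7 spans 49842638 to 49851391 of chromosome 3, minus strand. MST1R lies on the same strand, and 73.0 kb separate UBA7 and MST1R.

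UBE2L6, the E2, had the smallest ratio of the system and one of its highest levels. Its values were 194 FPKM in shNT and 321 FPKM in shRON, giving a ratio of 1.65 (interval 1.59 to 1.72) and a log2 ratio of 0.72. The gene spans 57319129 to 57335453 of chromosome 11, minus strand, and has 2 transcripts in the tables. NM_004223.3, with 1260 bases, carried 98.8% of its FPKM in shNT and 98.0% in shRON, at 191 and 314 FPKM. NM_198183.1, with 1269 bases, was at 2.41 and 6.32 FPKM. These transcripts differ little in length, and how fragments were divided between them rests on the authors' estimate.

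HERC5, which encodes the main human ISG15 ligase, had the largest ratio. It went from the lowest level of the system in shNT, 2.81 FPKM, to 26.0 FPKM in shRON. The log2 ratio of 2.82 ranked 19 among the 12483 kept genes. In FPKM the gene was 9.23 times as high (interval 7.79 to 11), on about 150 and 1359 fragments. The size depends on the pseudocount, with a log2 ratio of 3.16 at 0.1 FPKM and 1.99 at 5 FPKM. HERC5 lies on the plus strand of chromosome 4 from 89378268 to 89427314 and has 1 transcript in the tables.

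HERC6 is the neighbour of HERC5 on the same strand, from 89299891 to 89364249 of chromosome 4, and 14.02 kb separate the 2 genes. Its product is the main ISG15 ligase of the mouse, and its role in human cells is less clear. HERC6 had 9.52 FPKM in shNT and 30.7 FPKM in shRON, giving a ratio of 3.23 (interval 2.93 to 3.56) and a log2 ratio of 1.59. NM_017912.3 carried nearly all of it, at 9.29 and 30.7 FPKM, while NM_001165136.1 was at 0.231 FPKM in shNT, an estimated 13.2 fragments, and close to 0 in shRON. HERC6 stood above HERC5 in both libraries, but by a different margin. The quotient of HERC6 over HERC5 was 3.38 in shNT and 1.18 in shRON, on the FPKM scale, which is per length.

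USP18, the protease, had 16.7 FPKM in shNT against 37.1 FPKM in shRON. The FPKM ratio was 2.22 (interval 1.998 to 2.48), and the log2 ratio was 1.11. At a pseudocount of 5 FPKM it was 0.96, just under 2-fold. The gene lies on the plus strand of chromosome 22 from 18632758 to 18660164, with 1 transcript of 2037 bases. Its near-identical relative USP41 was listed at 0 in both libraries, and how reads shared by the 2 genes were assigned is uncertain. USP18 overlaps the gene LOC100506285, which was at 0.318 and 0.326 FPKM.

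The ratios of the members differed from one another by more than counting error in most pairs. Of the 15 pairs among the 6 genes, the intervals of the FPKM ratio were apart in 12. They overlapped for ISG15 and HERC6, for UBA7 and UBE2L6, and for UBA7 and USP18. No spread between cultures enters these intervals. The share of such pairs among all kept genes was not computed, so the count of 12 is not shown to be particular to these genes.

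The composition of the system differed between the libraries on the FPKM scale. ISG15 made up 57.2% of the summed FPKM of the 6 genes in shNT and 71.1% in shRON. UBE2L6 made up 36.6% in shNT and 21.99% in shRON. HERC5 went from 0.532% to 1.78%, while UBA7 was at 0.647% and 0.480%. The modifier stood at 18.2 times the level of its protease USP18 in shNT and at 28.0 times in shRON. ISG15 over UBE2L6 was 1.56 in shNT and 3.23 in shRON. The quotient of USP18 over UBA7 was 4.87 in shNT and 5.30 in shRON. Quotients were not computed for all pairs of the 6 genes, so they were not ranked.

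**Figure D2:**
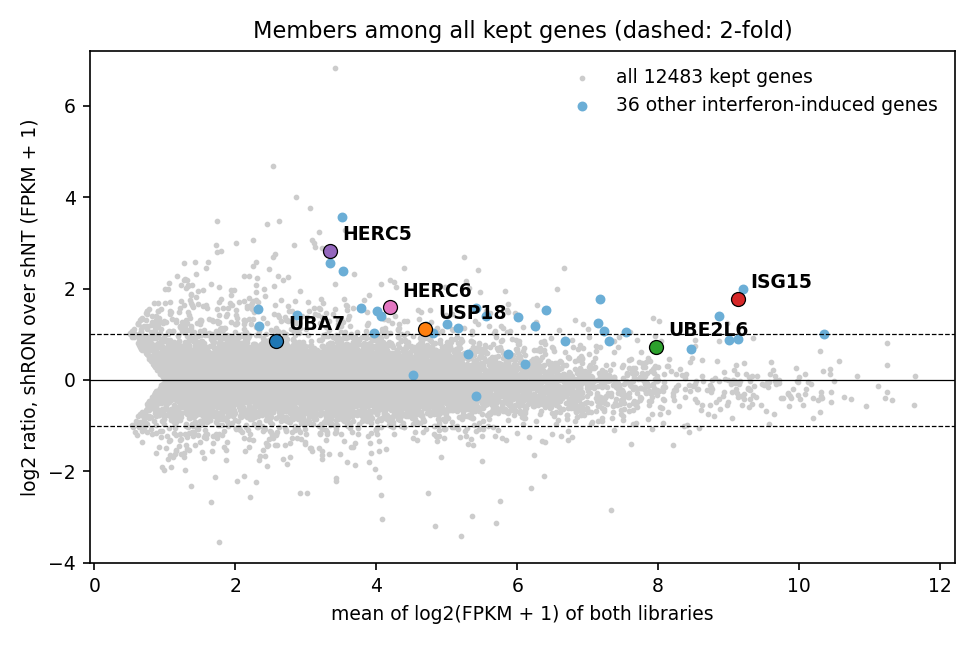
Log2 ratio of shRON over shNT (FPKM + 1) against the mean of log2(FPKM + 1) of both libraries for all 12483 kept genes (grey), 36 other interferon-induced genes (blue) and the 6 genes of the ISG15 system (labelled). Dashed lines mark 2-fold, and HERC5, ISG15, HERC6 and USP18 lie above the upper one.

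The system was next set among other interferon-induced genes, from a list of 36 that were all kept. Of these, 35 had log2 ratios above 0, 31 were at least 1.5-fold higher, 26 at least 2-fold higher and 0 at least 1.5-fold lower, with a median of 1.17. That list was drawn up with earlier results of these libraries known and is not independent evidence of direction. HERC5 was exceeded by 1 gene of the list, the antiviral GTPase gene MX2 (2.32 to 38.1 FPKM, log2 ratio 3.55). ISG15 and HERC6 were each exceeded by 5, among them TRIM22 (3.17 to 23.6 FPKM), RSAD2, which encodes viperin (4.05 to 25.4 FPKM), and IFI27 (296 to 1178 FPKM). USP18 lay below 21 of the 36, UBA7 below 29 and UBE2L6 below 30. At the low end of the list were PARP9 (60.1 to 76.6 FPKM), IFIT5 (21.0 to 22.9 FPKM) and IFITM2, which was lower in shRON (47.1 to 36.8 FPKM).

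Likeness was measured as the distance between genes in log2(FPKM + 1) of the 2 libraries, which uses level and ratio together. The kept gene nearest to ISG15 was IFI27, at a distance of 0.19, followed by TMSB10, which encodes thymosin beta-10 (328 to 778 FPKM), at 0.43. USP18 lay nearest to DDX60 (16.4 to 38.1 FPKM, 0.05) and TRIM21 (16.2 to 38.4 FPKM, 0.06). HERC5 was nearest to LGALS9, the galectin-9 gene (2.47 to 24.5 FPKM, 0.16), and TRIM22 (0.18). For UBE2L6 the nearest was NQO1 (196 to 354 FPKM, 0.14). UBA7 was nearest to BIK (3.26 to 6.84 FPKM) and CAPN13, and HERC6 to ID3 (10.8 to 30.2 FPKM) and PRKD2. With 2 libraries, a small distance means only that 2 genes had similar levels in both.

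Upstream of the system, transcripts of the interferon receptor pathway were mostly higher in shRON. Of 24 listed interferons, receptors and signalling genes 16 were kept, of which 11 were at least 1.5-fold higher and 0 lower by that size (median 0.76). Of the 16, 3 reached 1 FPKM in shRON alone, and a gene kept that way is higher there by construction. STAT2 was at 44.5 and 100.3 FPKM (log2 ratio 1.15), and IRF9, its partner in the factor that binds the response element, at 23.3 and 39.6 FPKM (0.74). IFNAR2, the receptor subunit that USP18 binds, was at 1.13 and 3.26 FPKM (1.00). JAK1, the kinase of that receptor chain, was at 50.6 and 38.0 FPKM.

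Interferon transcripts themselves were scarce. IL29, which encodes interferon lambda 1, had 0.928 FPKM in shNT and 6.56 FPKM in shRON, the highest of the ligand genes in shRON. IL28A was at 0.480 and 1.73 FPKM and IL28B at 1.26 and 2.28 FPKM, and these near-identical genes share reads. IFNB1, encoding interferon beta, did not reach 1 FPKM, at 0.155 and 0.991. IFNA1, IFNA2, IFNK, IFNE and IFNG were listed at 0 in both libraries. SOCS1, a feedback inhibitor of JAK kinases, was at 0.564 and 2.88 FPKM (1.31). IL29, IL28A and SOCS1 are the 3 kept genes of this list that reached 1 FPKM in shRON alone. With a pseudocount of 5 FPKM the count of 11 was 5, and with genes at 5 FPKM or more it was 7.

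Other proteins reported to act on ISG15 differed less between the libraries than the 6 genes did. Of 11 listed ligases, conjugating enzymes and proteases 10 were kept, with 1 at least 1.5-fold higher, 1 at least 1.5-fold lower and a median log2 ratio of 0.04. The higher one was TRIM25, a ligase reported for ISG15 (50.4 to 78.1 FPKM, 0.62), which no longer passed 1.5-fold with the median log2 ratio of all genes subtracted. USP2 was the lower one (1.90 to 0.927 FPKM, -0.59), and since it reached 1 FPKM in shNT alone it is lower by construction. It was not counted as lower at a pseudocount of 5 FPKM, among genes at 5 FPKM or more, or with regional medians subtracted. ARIH1, another reported ligase, was at 13.7 and 14.9 FPKM, UBE2E1 at 50.6 and 65.4 FPKM, and the proteases USP5, USP13, USP14, USP16 and USP21 had log2 ratios between -0.03 and 0.08. SKP2, which directs turnover of USP18, was at 9.24 and 10.1 FPKM. Among 13 genes for proteins reported to carry ISG15, 5 were at least 1.5-fold higher and 0 lower, or 1 lower with the most abundant transcript only. The higher ones included DDX58, which encodes the RNA sensor RIG-I (39.1 to 102 FPKM), EIF2AK2 (24.4 to 48.0 FPKM), MX1 (412 to 763 FPKM) and IFIT1 (280 to 447 FPKM). IRF3 was at 15.1 and 21.5 FPKM (0.49) and PCNA at 72.7 and 54.0 FPKM (-0.42).

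Each gene was then placed within its own enzyme family. UBA7 had a higher log2 ratio than all 9 other kept E1 genes, of which the highest was UBA3, a subunit of the NEDD8 E1 (0.38). Its level was under that of all 9 in shNT and of 8 in shRON. UBE2L6, in contrast, was the most abundant of its family in both libraries, above all 33 other kept UBE2 genes, while 2 of those had a higher log2 ratio, UBE2E3 (12.5 to 27.9 FPKM, 1.10) and UBE2D1 (log2 ratio 0.74). The median of the UBE2 genes was 0.17.

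Both ligase genes had higher log2 ratios than all 22 other kept HERC and HECT genes, whose median was 0.30. In shNT, 20 of the 22 were above HERC5 in FPKM, and in shRON 2 were. The other HERC genes, HERC1 to HERC4, had log2 ratios between -0.18 and 0.41. USP18 had a higher log2 ratio than all 44 other kept USP genes, whose maximum was 0.62 (USP53, 15.8 to 24.8 FPKM) and whose median was 0.20. ISG15 was exceeded in log2 ratio by 1 of 17 other kept ubiquitin-like modifier genes, UBD, which encodes FAT10 and was low in both libraries (0.129 to 4.16 FPKM, 2.19). UBD reached 1 FPKM in shRON alone, so it is higher there by construction. In shNT 4 of the 17 were more abundant than ISG15, and in shRON 0 were. The median of these modifier genes was -0.09. These families were listed by gene name, and the counts describe these 2 libraries.

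**Figure D3:**
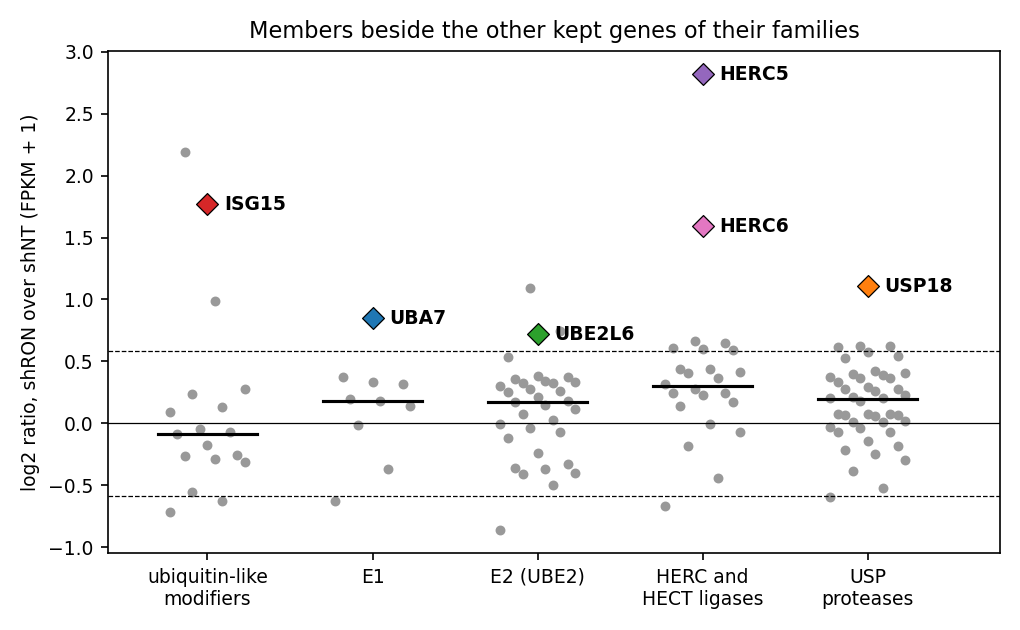
Log2 ratio of shRON over shNT (FPKM + 1) of the members (coloured diamonds) and of the other kept genes of each family (grey points), with a black bar at the family median and dashed lines at 1.5-fold. UBA7, HERC5, HERC6 and USP18 lie above all other genes of their families, whereas 2 UBE2 genes lie above UBE2L6. UBD, which was kept through shRON alone, lies above ISG15.

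The genes around each member were set beside it. Around ISG15, 48 kept genes within 1 Mb had a median log2 ratio of 0.08, and 0 of them reached the value of ISG15. Its nearest neighbours HES4 (35.8 to 26.7 FPKM) and AGRN (79.0 to 75.4 FPKM) were at -0.41 and -0.07. Around USP18, the median of 18 genes was -0.13, and PEX26, which encodes a peroxisomal protein, was at 11.4 and 13.1 FPKM. The 51 genes around UBA7 had a median of 0.14. IP6K1, on one side, was at 11.3 and 16.5 FPKM (0.51). On the other side TRAIP, the 1 kept gene between UBA7 and MST1R, was at 2.49 and 2.21 FPKM (-0.12). UBA7 and MST1R thus differed in opposite directions within the same region.

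The 4q22 pair had neighbours that were higher too, while UBE2L6 had neighbours that differed in both directions. PPM1K, a mitochondrial phosphatase gene 94.0 kb before HERC6, was at 6.64 and 18.3 FPKM (1.34), and PIGY, 14.8 kb beyond HERC5, was at 30.6 and 43.6 FPKM (0.50). HERC3, a further family member 86.3 kb beyond HERC5, was at 1.65 and 2.31 FPKM (0.32). The median of the 7 genes around HERC5 was 0.47 and that of the 8 around HERC6 was 0.40, so relative to their region the log2 ratios were 2.35 and 1.20. SERPING1, the C1 inhibitor gene 29.6 kb from UBE2L6, was at 2.35 and 9.42 FPKM (1.64) and was the 1 gene of 13 within 1 Mb above UBE2L6. TIMM10, on the other side, was at 49.7 and 44.3 FPKM, and RTN4RL2, beyond it, at 3.30 and 0.489 FPKM (-1.53). Of the 13 genes, 1 was at least 1.5-fold higher and 2 were lower by that size, with a median of -0.01.

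**Figure D4:**
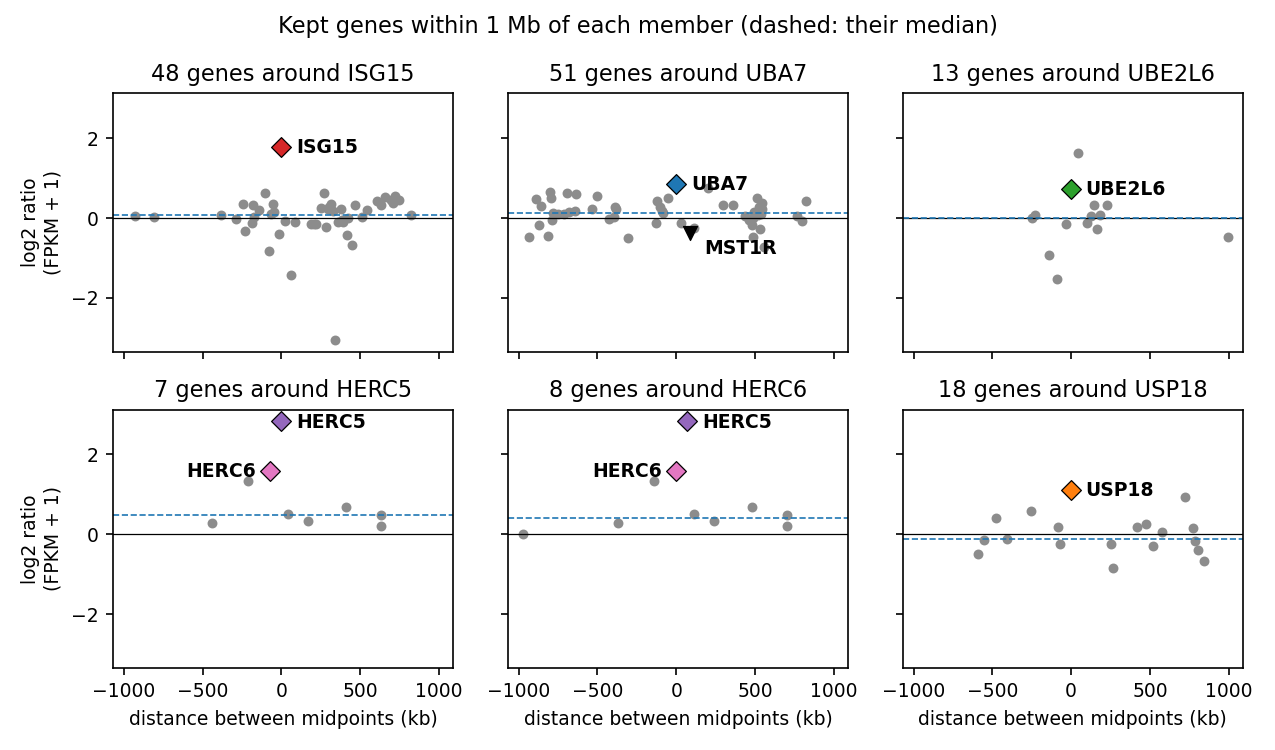
Log2 ratio of shRON over shNT (FPKM + 1) of kept genes against the distance of their midpoint from that of each member, with members as coloured diamonds, MST1R as a black triangle and other genes in grey. The dashed line is the median of the genes other than members, which was between -0.13 and 0.14 around ISG15, UBA7, UBE2L6 and USP18 and at 0.47 and 0.40 around HERC5 and HERC6.

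Across 11 other processing settings the log2 ratios of all 6 genes stayed above 0. The ranges over all settings were 1.69 to 1.92 for ISG15, 0.51 to 1.01 for UBA7, 0.68 to 0.85 for UBE2L6, 1.99 to 3.16 for HERC5, 1.20 to 1.68 for HERC6 and 0.96 to 1.24 for USP18. HERC5 kept the highest log2 ratio of the 6 and ISG15 the next in each setting.

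**Figure D5:**
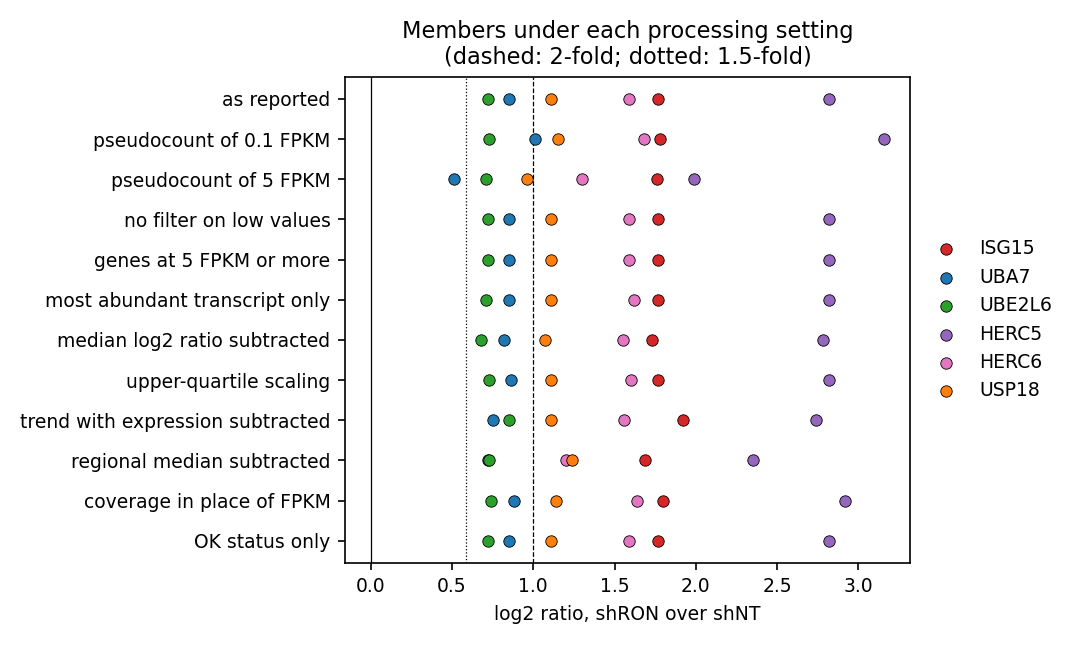
Log2 ratio of shRON over shNT of each member (colours) under the processing used in the report and 11 other settings, with a dashed line at 2-fold and a dotted line at 1.5-fold. HERC5 ranges most widely, from 1.99 to 3.16, and UBA7 falls below the dotted line at a pseudocount of 5 FPKM.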

How the data were processed

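Per the file headers, each deposited table lists RefSeq transcripts in the layout of Cufflinks, with length, coverage, FPKM and a status. The build is hg19 per the submitters' processing notes, which also name DESeq without a role. For the aligner, tool versions and strandedness of the kit, nothing is given in the sources used here. Deposited FPKM values carry no stated scaling between libraries, and the deposited coverage signal was read as mean depth over a transcript, not divided by library size.

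FPKM was summed per gene, small RNA genes were left out, and a gene was kept where either library reached 1 FPKM. Log2 ratios used a pseudocount of 1 FPKM. With 1 library per group, genes were counted by fixed sizes (1.5-fold and 2-fold) and not tested. Fragments were estimated as coverage times length divided by 244 bases (shNT) or 241 bases (shRON), the median product taken as 1 read pair in 280 and 275 low single-transcript genes, with quartiles of 226 and 263 bases in shNT. Intervals are approximate 95% Clopper-Pearson intervals on these estimates. Scripts (Python 3.11.15, pandas 2.3.3, scipy 1.17.1) were tested on simulated data. All 6 members were named, with genes of fixed lists past 1.5-fold (up to 4 highest and 3 lowest), nearest neighbours and nearest genes by level. Further list genes (such as JAK1, ARIH1, UBE2E1, SKP2, IRF3 and PCNA) and the low interferons were named after their values were seen. The members and lists were chosen with earlier results of these data known. A few genes that these rules would name are not reported here.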

Additional observations from a re-analysis of the deposited data

How the results depend on the processing

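All 6 members were at least 1.5-fold higher in 10 of 11 other settings and 5 were at a pseudocount of 5 FPKM, and 4 were at least 2-fold higher in 9, 5 at a pseudocount of 0.1 FPKM and 3 at 5 FPKM. At a pseudocount of 0.1 FPKM, HERC5 was at 3.16, and 695 and 490 of all genes were past 2-fold up and down, beside 414 and 271. At 5 FPKM, UBA7 was at 0.51, HERC5 at 1.99 and HERC6 at 1.30, with 144 and 84 genes past 2-fold, 517 and 465 past 1.5-fold (beside 1241 and 1104), and 4 genes of the fixed lists lower by 1.5-fold, beside 9. A larger pseudocount shrinks the ratio of low genes by construction. With genes at 5 FPKM or more, fewer genes were counted, and 268 were at least 2-fold and 797 at least 1.5-fold higher. With the trend along expression subtracted, ISG15 was at 1.92 and UBE2L6 at 0.85. With regional medians subtracted, ISG15 was at 1.69, HERC5 at 2.35 and HERC6 at 1.20, and 4 listed genes were lower. These last shifts are the subtracted trend or regional median itself. Other settings (no filter, most abundant transcript, median and upper-quartile scaling, coverage, OK status) left HERC5 between 2.78 and 2.92. The counting intervals are of FPKM ratios without a pseudocount, so these log2 ratios were not compared with them. No paired analysis was possible because each group has 1 library. UBA7 and HERC5 rest on the fewest fragments in shNT, 173 and 150, which limits their ratios most.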
